A study of Mus musculus with 24 samples.

Results

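This account covers 10 imprinted genes that brain tissue expresses, namely Kcnq1ot1, Meg3, Rian, Mirg, Peg3, Ndn, Snrpn, Grb10, Gnas and Dlk1. They were represented by every probe set, the group of short probes that reads 1 transcript, whose only gene symbol in the platform annotation was one of these names. The 10 genes, of the 18194 with a probe set of their own, gave 47 of the 45101 probe sets on the array. Of these 47, 35 were bright enough to be tested and 12 were dim, with a mean among the lowest 40% of the array. The tested probe sets were 2 of 6 for Kcnq1ot1, 11 of 11 for Meg3, 4 of 4 for Rian, 2 of 2 for Mirg, 3 of 5 for Peg3, 5 of 8 for Ndn, 1 of 1 for Snrpn, 3 of 3 for Grb10, 2 of 5 for Gnas and 2 of 2 for Dlk1. Another 6 probe sets carry Snrpn together with Snurf, which share a transcript, and were not counted. Kcnq1ot1 was chosen by its difference between aSYN/Hsp70 and Hsp70 brains, where it had the smallest p-value, so all values of that comparison are given as a description.

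Total RNA of the whole brain, taken at an age of 4 months, had been hybridised to 24 Affymetrix arrays, 1 per sample. The groups were aSYN/Hsp70 mice, which carried both alterations, aSYN mice, Hsp70 mice and wt (wild-type) mice, with 6 arrays each. The labels give neither a strain nor a promoter, do not spell out aSYN, read here as alpha-synuclein, and do not say how either genotype was made or that the samples came from separate animals. The p-values therefore measure the spread between these samples, which may be technical.

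Imprinted genes are transcribed mainly from the copy inherited from 1 parent, under the control of DNA methylation set in the germ line. Most of them lie in clusters, in which a long non-coding RNA from 1 parental copy often accompanies the silencing of protein-coding neighbours on that copy. Many are expressed strongly in the brain, where they are known for roles in growth, feeding, maternal care and the secretion of hypothalamic hormones. The arrays do not tell the parental copies apart, so every value below is the sum over both.

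The promoters of 6 of these genes are shown. Kcnq1ot1 is the gene chosen by its difference between aSYN/Hsp70 and Hsp70 brains, which was not tested. The brightest probe sets of Ndn, Grb10 and Dlk1 moved together from array to array, with or without the 4 arrays that stood apart from the rest. Those of Meg3 and Peg3 had a correlation of 0.77, which was 0.36 without those 4. Each promoter runs 5′ to 3′ from 250 bases before to 50 bases after an annotated start in RefSeq (GRCm38.p6). Capitals mark each CG, the dinucleotide that carries DNA methylation. Where a gene had several annotated starts, the window with the most CG was taken, a choice that raises its rank by CG below.
Kcnq1ot1 promoter, chr7:143296498-143296797, minus strand: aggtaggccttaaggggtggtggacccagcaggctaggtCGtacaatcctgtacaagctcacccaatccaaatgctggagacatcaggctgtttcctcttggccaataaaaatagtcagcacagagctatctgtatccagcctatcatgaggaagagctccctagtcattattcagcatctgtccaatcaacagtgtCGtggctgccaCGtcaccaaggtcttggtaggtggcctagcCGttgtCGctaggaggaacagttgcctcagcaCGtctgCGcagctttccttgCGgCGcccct
Meg3 promoter, chr12:109540746-109541045, plus strand: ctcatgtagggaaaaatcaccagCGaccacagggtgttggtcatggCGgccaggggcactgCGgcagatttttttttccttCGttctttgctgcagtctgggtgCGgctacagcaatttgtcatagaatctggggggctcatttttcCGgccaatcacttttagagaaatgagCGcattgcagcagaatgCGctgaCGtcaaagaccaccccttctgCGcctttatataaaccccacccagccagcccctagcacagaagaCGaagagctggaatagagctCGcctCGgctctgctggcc
Peg3 promoter, chr7:6730370-6730669, minus strand: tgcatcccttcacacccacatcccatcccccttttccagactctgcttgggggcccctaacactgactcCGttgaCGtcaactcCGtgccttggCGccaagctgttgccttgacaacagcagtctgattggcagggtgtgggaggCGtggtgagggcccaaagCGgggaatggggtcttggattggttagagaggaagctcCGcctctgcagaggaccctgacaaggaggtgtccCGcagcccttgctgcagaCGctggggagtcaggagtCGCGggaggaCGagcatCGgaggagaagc
Ndn promoter, chr7:62348027-62348326, plus strand: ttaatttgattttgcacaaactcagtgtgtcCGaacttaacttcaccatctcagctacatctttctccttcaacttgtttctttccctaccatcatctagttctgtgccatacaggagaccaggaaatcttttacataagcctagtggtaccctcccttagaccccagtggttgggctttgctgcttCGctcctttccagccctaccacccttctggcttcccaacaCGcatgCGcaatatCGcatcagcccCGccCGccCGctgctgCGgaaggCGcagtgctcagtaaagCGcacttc
Grb10 promoter, chr11:12037371-12037670, minus strand: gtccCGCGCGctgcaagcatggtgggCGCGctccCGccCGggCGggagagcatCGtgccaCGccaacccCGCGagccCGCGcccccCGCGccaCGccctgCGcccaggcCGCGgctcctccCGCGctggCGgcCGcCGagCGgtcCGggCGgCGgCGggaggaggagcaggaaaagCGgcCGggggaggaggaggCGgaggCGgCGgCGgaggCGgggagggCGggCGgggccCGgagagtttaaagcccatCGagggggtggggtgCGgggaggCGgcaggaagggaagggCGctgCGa
Dlk1 promoter, chr12:109452573-109452872, plus strand: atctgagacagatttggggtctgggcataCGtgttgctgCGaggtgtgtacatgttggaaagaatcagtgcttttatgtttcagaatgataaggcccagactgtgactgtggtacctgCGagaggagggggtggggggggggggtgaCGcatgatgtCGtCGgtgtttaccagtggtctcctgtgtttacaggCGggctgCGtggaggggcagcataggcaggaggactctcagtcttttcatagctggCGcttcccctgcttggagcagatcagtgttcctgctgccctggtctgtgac
The Grb10 window held 45 CG dinucleotides, a number that 1.93% of the 32851 annotated mouse promoters reached, whereas a second annotated Grb10 promoter, chr11:12027922-12028221, held 9, which 45.8% reached. In the windows printed Meg3 and Peg3 held 13 each, Ndn 11, and Kcnq1ot1 and Dlk1 9 each, and at least as many were found in 37.9%, 41.4% and 45.8% of promoters. A second annotated Meg3 promoter, chr12:109545148-109545447, held 1 CG (94.6% of promoters have at least as many). The CCAAT motif, searched on both strands, occurred 3 times for Kcnq1ot1, 2 times for Peg3 and 1 time for Meg3, and 37.4% of promoters hold it. The palindrome TGACGTCA, known as the cyclic AMP response element, occurred once each in the Meg3 and Peg3 windows, and 1.79% of promoters hold it. It was not found in the other 4 windows printed. TGCCGC, also searched on both strands, occurred once each in the Meg3 and Grb10 windows and in 11.6% of promoters. These motifs were chosen after the sequences had been seen, and a match is a description of the letters, not a binding site.

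Meg3, Rian and Mirg are long non-coding RNAs of the maternal chromosome 12 whose introns or exons hold microRNAs, and the RefSeq hairpins inside them gave 28 mature microRNAs, 3 in Meg3, 6 in Rian and 19 in Mirg. The array did not measure microRNAs, and the sequences below show only what these host transcripts carry. The seed, bases 2 to 8 of a mature microRNA, is in capitals. Among the 28 there were 27 different seeds, and the only shared one belonged to miR-453 and miR-496a-5p, both in Mirg.
miR-770-5p, in Meg3: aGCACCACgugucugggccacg
miR-370-3p, in Rian: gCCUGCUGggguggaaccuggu
miR-453, in Mirg: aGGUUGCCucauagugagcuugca
miR-496a-5p, in Mirg: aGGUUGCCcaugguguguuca
miR-410-3p, in Mirg: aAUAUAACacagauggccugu

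All values are log2 intensities after quantile normalisation, written below as log2 units, and a difference of 1 unit is a doubling. Array medians of the deposited intensities ran from 458 to 893, and each array correlated with the rest at a median Spearman rho of 0.836 to 0.939. Standing apart from the rest were 4 arrays, aSYN/Hsp70 replicates 3 and 4 and Hsp70 replicates 3 and 6, with limma array weights between 0.124 and 0.394. Xist and Y-linked probe sets marked 2 of 6 aSYN/Hsp70, 4 of 6 aSYN, 3 of 6 Hsp70 and 4 of 6 wt samples as female. The 4 probe sets of Hspa1a and Hspa1b, mouse genes of inducible HSP70, differed between Hsp70 and wt brains by -0.14 to 0.26 log2 units (limma adjusted p of at least 0.91). Between aSYN/Hsp70 and aSYN brains they differed by -0.49 for Hspa1a and by 0.10, 0.60 and 0.26 for Hspa1b (limma adjusted p of at least 0.422), so neither comparison gave a call for them. All 6 neuronal, 6 astrocyte, 6 endothelial, 6 meningeal and 6 dopamine neuron markers and all 5 measured oligodendrocyte markers were above the filter on dim probe sets in these brains. Of 6 pituitary markers measured Cga and Tshb were dim, and the summed intensity of the list ran from 1563 to 31967 in aSYN/Hsp70, 1962 to 3085 in aSYN, 2672 to 6014 in Hsp70 and 1649 to 177887 in wt samples, the last value from wt replicate 5.

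Kcnq1ot1 is a paternally expressed antisense RNA that starts inside Kcnq1 and is known for silencing neighbours such as Cdkn1c and Phlda2 on the paternal chromosome. Its level was lowest in aSYN/Hsp70 brains. On its brightest probe set, 1458161_at, the lowest, median and highest arrays read 9.07, 9.56 and 9.69 log2 units in aSYN/Hsp70, 10.02, 10.23 and 10.56 in aSYN, 9.73, 10.62 and 11.03 in Hsp70, and 9.99, 10.22 and 10.85 in wt brains. Every aSYN/Hsp70 array lay below every array of the other groups, which overlapped each other. The group means were 9.45 ± 0.28 in aSYN/Hsp70, 10.27 ± 0.19 in aSYN, 10.53 ± 0.54 in Hsp70 and 10.28 ± 0.31 in wt brains (SD, n = 6 each). In order from high to low, the groups were Hsp70, wt, aSYN and aSYN/Hsp70, and the first 3 differed from each other by less than their spread.

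**Figure D1:**
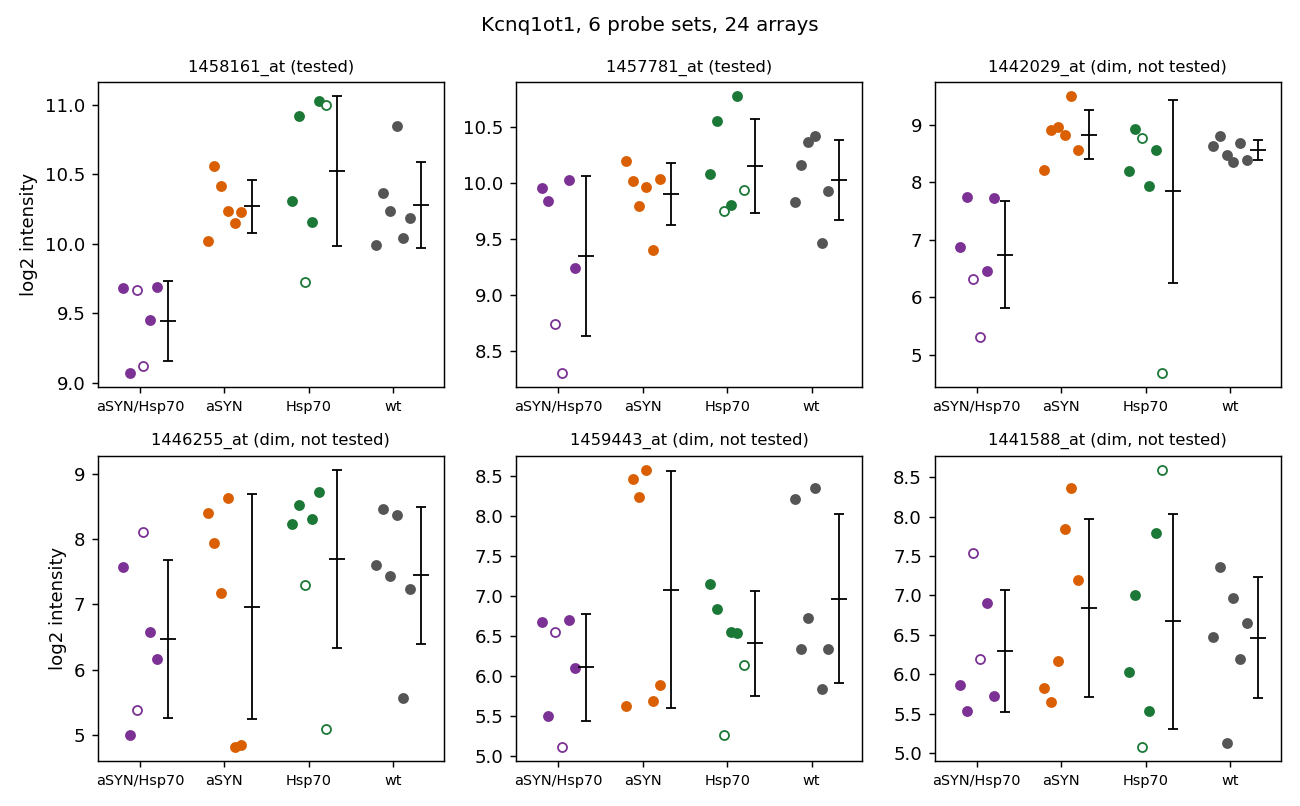
Log2 intensity of the 6 Kcnq1ot1 probe sets in 4 groups of 6 arrays. Each point is an array, open points are the 4 arrays that stood apart, and bars give the mean and SD; on 1458161_at the aSYN/Hsp70 points end at 9.69, below all others.

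The difference on 1458161_at was -1.08 log2 units for aSYN/Hsp70 versus Hsp70, -0.84 for aSYN/Hsp70 versus wt and -0.82 for aSYN/Hsp70 versus aSYN (SE 0.20 for each). These 3 share the aSYN/Hsp70 arrays by which the gene was chosen and were not tested. Groups without overlap and lower in aSYN/Hsp70 were found for 0.174%, 0.507% and 0.992% of all 27022 tested probe sets in the same 3 comparisons. Without aSYN, Hsp70 brains stood 0.24 units above wt brains. In aSYN versus wt brains the difference was -0.01 (SE 0.20, limma adjusted p = 1), from the fit of all 24 arrays, whose spread the aSYN/Hsp70 and Hsp70 arrays share. With those 12 arrays alone, normalised and fitted without the others, it was -0.01 (SE 0.15, limma adjusted p = 0.985). The aSYN difference in the presence of Hsp70 minus that in its absence, called the interaction below, was -1.07 (SE 0.28), a description for this gene. Other markers also differed between these groups, and their part in these values was not tested. The summed intensity of 5 oligodendrocyte markers ran from 211996 to 282683 in aSYN/Hsp70, 246999 to 282004 in aSYN, 259988 to 294806 in Hsp70 and 277979 to 311029 in wt samples. That of 6 dopamine neuron markers ran from 18714 to 23193 in aSYN/Hsp70, 21665 to 28328 in aSYN, 20556 to 24028 in Hsp70 and 22742 to 29814 in wt samples.

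The second tested probe set, 1457781_at, had the same order of groups with more overlap. Its lowest, median and highest arrays read 8.30, 9.54 and 10.03 log2 units in aSYN/Hsp70, 9.40, 10 and 10.20 in aSYN, 9.75, 10.01 and 10.78 in Hsp70, and 9.47, 10.04 and 10.42 in wt brains. It averaged 9.35 ± 0.72 log2 units in aSYN/Hsp70, 9.90 ± 0.28 in aSYN, 10.15 ± 0.42 in Hsp70 and 10.03 ± 0.36 in wt brains (SD, n = 6 each). Its difference was -0.80 for aSYN/Hsp70 versus Hsp70, -0.68 versus wt and -0.55 versus aSYN (SE 0.26 for each), and -0.13 for aSYN versus wt (limma adjusted p = 1). Without the 4 arrays that stood apart, 1457781_at averaged 9.77 ± 0.36 in aSYN/Hsp70 and 10.31 ± 0.44 in Hsp70 brains (SD, n = 4 each), against 9.90 ± 0.28 in aSYN and 10.03 ± 0.36 in wt brains (SD, n = 6 each). The same arrays made little difference to 1458161_at, which then averaged 9.47 ± 0.29 in aSYN/Hsp70 and 10.61 ± 0.43 in Hsp70 brains (SD, n = 4 each), still without overlap. After group means were removed, the 2 probe sets correlated across the 24 arrays at r = 0.41. Over all 15 pairs of Kcnq1ot1 probe sets, the 4 dim ones included, r ran from -0.36 to 0.52 with a median of 0.17, and 4 pairs were negative.

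The other 4 Kcnq1ot1 probe sets were dim. One of them, 1442029_at, read 5.31, 6.67 and 7.75 log2 units at its lowest, median and highest array in aSYN/Hsp70, 8.21, 8.88 and 9.50 in aSYN, 4.68, 8.38 and 8.93 in Hsp70 and 8.36, 8.56 and 8.81 in wt brains. In aSYN/Hsp70 it thus lay below aSYN and wt brains without overlap, with differences of -2.10 and -1.82 units. However, 1 Hsp70 array, replicate 6, was lower than all aSYN/Hsp70 arrays. The r of 1442029_at with 1458161_at was -0.19. Shares of probe sets without overlap were counted over tested ones only, so none can be set beside this dim one. The remaining 3, 1446255_at, 1459443_at and 1441588_at, overlapped in every comparison. They differed by -1.23, -0.30 and -0.37 units in aSYN/Hsp70 versus Hsp70, with SDs within groups of 1.37, 1.02 and 1.04. All 6 probe sets were lower in aSYN/Hsp70 than in Hsp70 brains, the comparison by which the gene was chosen. They share the same arrays, so their common direction is a description and no independent support. In whole-brain RNA, fewer cells that express a gene and less of its RNA per cell cannot be told apart.

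None of the imprinted neighbours of Kcnq1ot1 passed the test in a tested comparison. Within 1 Mb, Igf2, a growth factor gene, Cdkn1c, which encodes a cell cycle inhibitor, and Tssc4 were bright enough to be tested, Phlda2, Kcnq1, Slc22a18 and Ascl2 were dim, and H19 had no named probe set. Cdkn1c differed by -0.40 log2 units in aSYN/Hsp70 versus aSYN brains (SE 0.27, limma adjusted p = 0.417) and by -0.15 in aSYN/Hsp70 versus wt brains (SE 0.27, limma adjusted p = 0.799). Igf2 differed by -0.04 and -0.08 and Tssc4 by 0.11 and 0.08 in the same 2 comparisons. Against Hsp70 brains, aSYN/Hsp70 brains differed by -0.07 for Cdkn1c, -0.18 for Igf2 and 0.13 for Tssc4.

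For the other 9 genes, 0 of 33 tested probe sets passed an adjusted p of 0.05 in any of the 5 comparisons tested (limma, Benjamini-Hochberg over 27022 probe sets). The plot of differences shows how far from 0 each lay, with the farthest at -0.81 (Grb10 1425457_a_at, aSYN versus wt). Over all tested probe sets, 0.718% were called for aSYN/Hsp70 versus aSYN, 0.0037% in aSYN versus wt and 0% in Hsp70 versus wt, aSYN/Hsp70 versus wt and the interaction. At an unadjusted p under 0.05 the counts of the 33 were 5 (15.2%) in aSYN/Hsp70 versus aSYN, 0 in aSYN/Hsp70 versus wt, 2 (6.06%) in aSYN versus wt, 1 (3.03%) in Hsp70 versus wt and 4 (12.1%) in the interaction. Over all probe sets the same threshold was passed by 19.6%, 14.5%, 5.17%, 4.83% and 8.13%. The groups overlapped for all 33 in every comparison, while groups without overlap were found for 2.05% of all tested probe sets in aSYN/Hsp70 versus aSYN, 0.311% in aSYN/Hsp70 versus Hsp70, 0.888% in aSYN/Hsp70 versus wt, 1.17% in aSYN versus wt and 0.27% in Hsp70 versus wt.

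**Figure D2:**
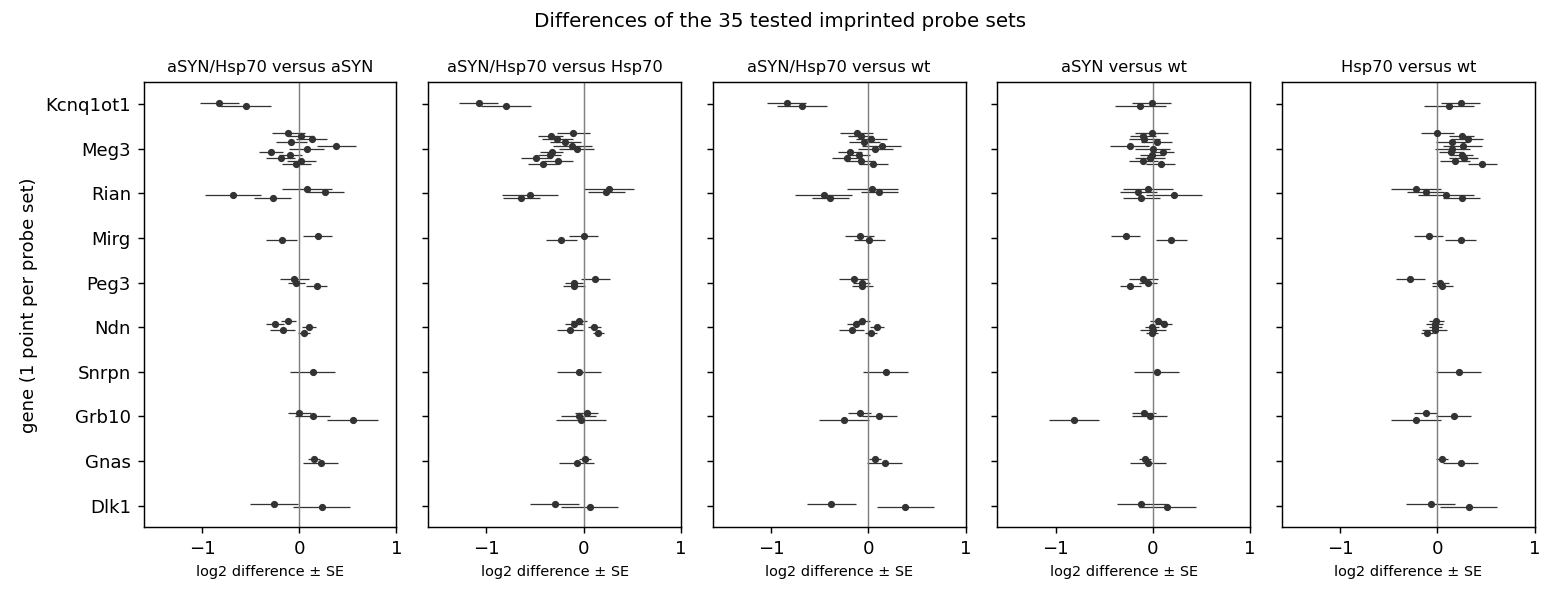
Log2 difference with its SE for each of the 35 tested probe sets (1 point each, by gene) in 5 comparisons. Both Kcnq1ot1 points lie left of 0 in the 3 panels with aSYN/Hsp70, and of the other 33 those farthest from 0 are a Grb10 probe set at -0.81 in aSYN versus wt and a Rian probe set at -0.68 in aSYN/Hsp70 versus aSYN.

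In direction, 18 of the 33 were higher and 15 lower in aSYN/Hsp70 versus aSYN, with a median of 0.016 log2 units against -0.031 over all tested probe sets. Against wt brains, 14 were higher and 19 lower in aSYN/Hsp70 brains, with a median of -0.058 against -0.037. In aSYN versus wt brains 9 were higher and 24 lower (median -0.032 against 0), and in Hsp70 versus wt brains 20 were higher and 13 lower (median 0.09 against -0.017). Set against Hsp70 brains, aSYN/Hsp70 brains had 8 higher and 25 lower (median -0.102 against -0.013). There 0% of all tested probe sets passed the adjusted threshold and 9.62% an unadjusted p under 0.05. Probe sets of 1 gene are not independent, and Meg3 alone gave 11 of these 25 and 10 of the 20 higher in Hsp70 versus wt. Over all tested probe sets, 12847 were higher and 14175 lower in aSYN/Hsp70 versus Hsp70. The same counts were 12580 and 14442 in Hsp70 versus wt and 13495 and 13527 in aSYN versus wt.

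Meg3, a maternally expressed long non-coding RNA that shares a cluster on chromosome 12 with Rian, Mirg and Dlk1, had 11 tested probe sets, of which 10 were higher in Hsp70 than in wt brains (median 0.252) and 11 were lower in aSYN/Hsp70 than in Hsp70 brains (median -0.273). These probe sets read 1 gene and are not independent. The lowest adjusted p among the 11 in Hsp70 versus wt was 0.881. On the brightest, 1452906_at, the lowest, median and highest arrays read 15.66, 15.83 and 15.99 log2 units in aSYN/Hsp70, 15.86, 15.91 and 16.08 in aSYN, 14.97, 16.13 and 16.33 in Hsp70 and 15.61, 16.03 and 16.30 in wt brains. All groups overlapped, and Hsp70 replicate 6 gave the lowest value.

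The Meg3 probe set with the smallest p in Hsp70 versus wt, 1436057_at, read 12.89, 13.54 and 13.89 log2 units in Hsp70 and 12.76, 13.08 and 13.33 in wt brains at its lowest, median and highest array. Most Hsp70 arrays were above most wt arrays, with overlap, and the difference of 0.46 did not pass (SE 0.15, limma adjusted p = 0.881). The smallest p in aSYN/Hsp70 versus aSYN was that of 1452905_at. It read 14.22, 14.30 and 14.57 in aSYN/Hsp70 and 14.46, 14.60 and 14.83 in aSYN brains, a difference of -0.29 with overlap (SE 0.12, limma adjusted p = 0.203). In the interaction, 10 of 11 Meg3 probe sets were negative, and 1436057_at, 1436713_s_at and 1452905_at had values of -0.50, -0.46 and -0.42 (limma adjusted p = 0.577, 0.585 and 0.541).

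Rian, a maternally expressed RNA downstream of Meg3 that hosts small nucleolar RNAs, did not move as 1 unit. Its brightest probe set, 1452899_at, read 12.55, 12.83 and 13.14 log2 units in aSYN/Hsp70, 12.41, 12.73 and 13.09 in aSYN, 11.13, 12.71 and 13.18 in Hsp70 and 12.04, 12.95 and 13.17 in wt brains at the lowest, median and highest array. All groups overlapped, and Hsp70 replicate 6 was again the lowest array. Another, 1428055_at, read 9.74, 10.53 and 10.78 in aSYN/Hsp70 and 10.24, 11.17 and 11.39 in aSYN brains. Only 1 aSYN array, replicate 1, reached down into the range of aSYN/Hsp70 brains, and the difference of -0.68 did not pass (SE 0.29, limma adjusted p = 0.208). Without the 4 arrays that stood apart it was -0.42. In that comparison 2 of the 4 Rian probe sets were higher and 2 lower.

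Mirg, the microRNA host at the end of the cluster, read 10.81, 11.19 and 11.30 log2 units in aSYN/Hsp70, 10.16, 11.07 and 11.25 in aSYN, 10.81, 11.08 and 11.58 in Hsp70 and 11.02, 11.20 and 11.46 in wt brains on 1457030_at. Its largest tested difference on that probe set was -0.28 in aSYN versus wt brains (SE 0.15, limma adjusted p = 0.995). Dlk1, the paternally expressed gene of the same cluster, encodes a transmembrane protein related to Notch ligands. On 1442724_at it read 10.13, 11.19 and 11.73 in aSYN/Hsp70, 10.84, 11.28 and 11.62 in aSYN, 10.79, 11.28 and 11.95 in Hsp70 and 10.65, 11.40 and 12.06 in wt brains. All groups overlapped, with the lowest array in aSYN/Hsp70 and the highest in wt brains, and its difference in aSYN/Hsp70 versus wt brains was -0.38 (SE 0.25, limma adjusted p = 0.455). The second Dlk1 probe set, 1449939_s_at, had the opposite sign there, 0.38.

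**Figure D3:**
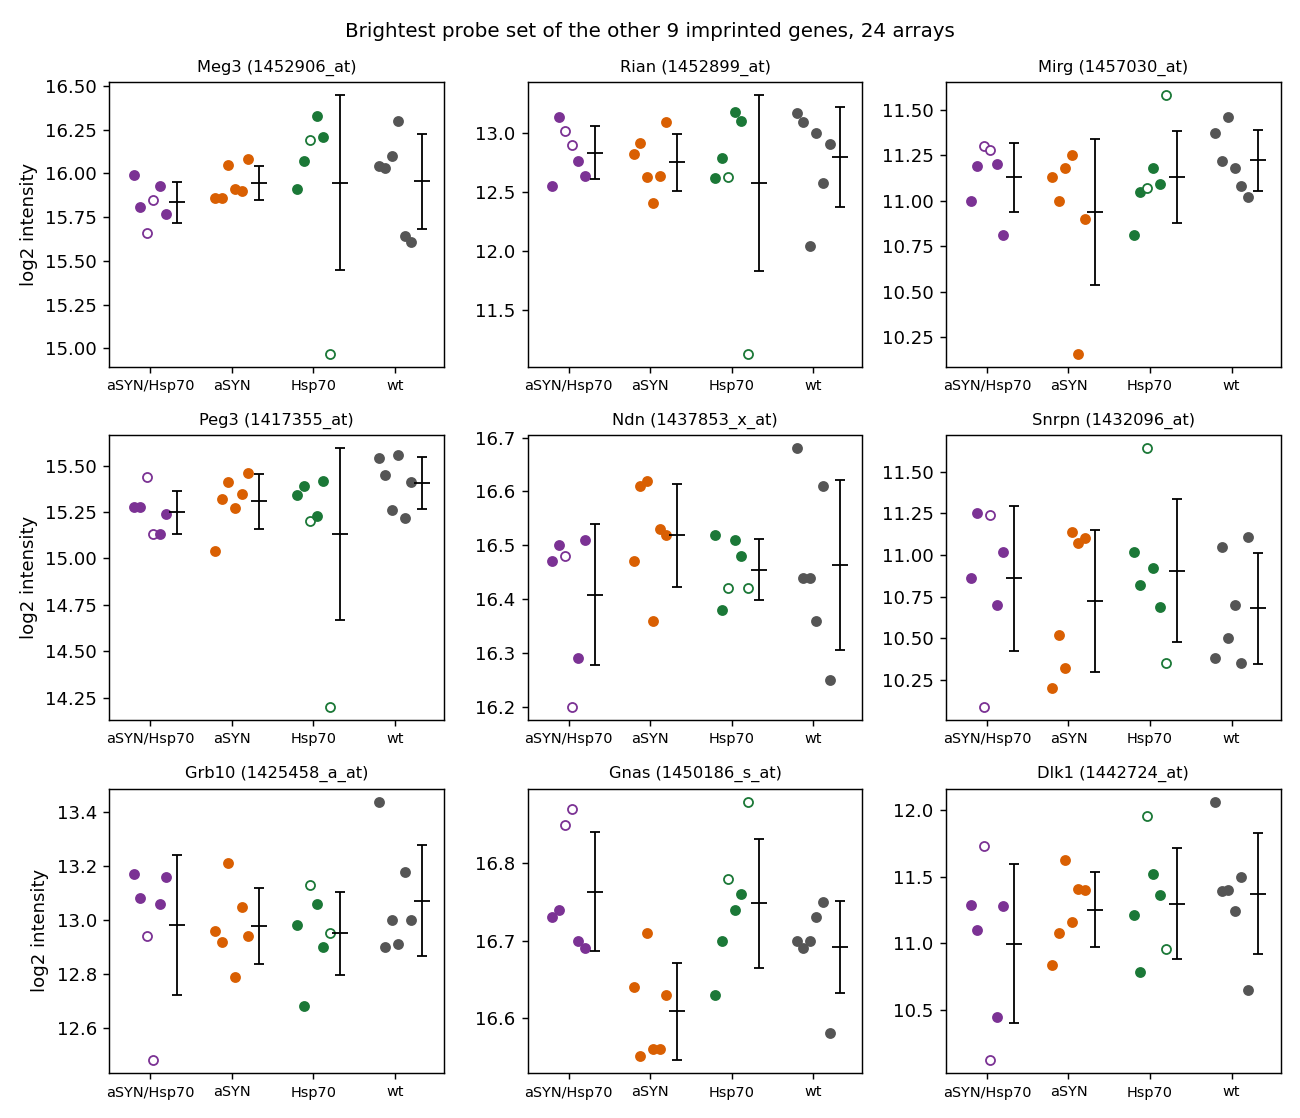
Log2 intensity of the brightest probe set of 9 imprinted genes in 4 groups of 6 arrays. Each point is an array, open points are the 4 arrays that stood apart and bars give the mean and SD; the groups overlap in every panel, and Hsp70 replicate 6 is the lowest open point for Meg3 (14.97), Rian (11.13) and Peg3 (14.20).

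Peg3, a paternally expressed gene for a zinc finger protein, read 15.13, 15.26 and 15.44 log2 units in aSYN/Hsp70, 15.04, 15.34 and 15.46 in aSYN, 14.20, 15.28 and 15.42 in Hsp70 and 15.22, 15.43 and 15.56 in wt brains on 1417355_at. A second probe set, 1417356_at, read 13.08, 13.35 and 13.60 in aSYN and 13.46, 13.54 and 13.67 in wt brains. The aSYN arrays spread below and into the narrow wt range, and the difference of -0.23 did not pass (SE 0.11, limma adjusted p = 0.961). All 3 tested Peg3 probe sets were lower in aSYN than in wt brains, by 0.05 to 0.23 units.

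Ndn encodes necdin, a MAGE family protein of neurons, and Snrpn a core protein of spliceosomal particles; both are paternally expressed and lie in the region whose human counterpart is lost in Prader-Willi syndrome. On 1437853_x_at, Ndn read 16.20, 16.47 and 16.51 log2 units in aSYN/Hsp70, 16.36, 16.53 and 16.62 in aSYN, 16.38, 16.45 and 16.52 in Hsp70 and 16.25, 16.44 and 16.68 in wt brains. On 1455792_x_at it read 15.47, 15.88 and 16.11 in aSYN/Hsp70 and 15.96, 16.08 and 16.31 in aSYN brains, a difference of -0.25 with overlap (SE 0.09, limma adjusted p = 0.167), which was -0.15 without the 4 arrays that stood apart. Snrpn, on 1432096_at, read 10.09, 10.94 and 11.25 in aSYN/Hsp70, 10.20, 10.79 and 11.14 in aSYN, 10.35, 10.87 and 11.64 in Hsp70 and 10.35, 10.60 and 11.11 in wt brains. Its largest tested difference between 2 groups was 0.22 in Hsp70 versus wt (SE 0.23, limma adjusted p = 0.897).

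Grb10 encodes an adaptor protein that binds insulin and growth factor receptors and is known in the mouse for paternal expression in neurons and maternal expression elsewhere. On 1425458_a_at it read 12.48, 13.07 and 13.17 log2 units in aSYN/Hsp70, 12.79, 12.95 and 13.21 in aSYN, 12.68, 12.97 and 13.13 in Hsp70 and 12.90, 13.00 and 13.44 in wt brains. A dimmer probe set, 1425457_a_at, read 8.33, 8.83 and 9.58 in aSYN/Hsp70, 7.75, 8.16 and 9.23 in aSYN, 8.34, 8.88 and 9.50 in Hsp70 and 8.61, 9.15 and 9.52 in wt brains. Its aSYN arrays were mostly below the others, with overlap. It differed by -0.81 in aSYN versus wt (SE 0.26, limma adjusted p = 0.547) and by 0.55 in aSYN/Hsp70 versus aSYN brains (SE 0.26, limma adjusted p = 0.245), and its interaction was 0.78 (SE 0.37, limma adjusted p = 0.61). The brightest Grb10 probe set differed by -0.09 and 0 in the same 2 comparisons between groups.

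Gnas is a complex locus whose main product is the stimulatory G protein alpha subunit, which couples hormone receptors to adenylyl cyclase. On 1450186_s_at, which may read several of its transcripts, it had 16.69, 16.73 and 16.87 log2 units in aSYN/Hsp70, 16.55, 16.60 and 16.71 in aSYN, 16.63, 16.75 and 16.88 in Hsp70 and 16.58, 16.70 and 16.75 in wt brains. The aSYN/Hsp70 and aSYN ranges met only at their ends, and the difference of 0.15 did not pass (SE 0.06, limma adjusted p = 0.17). It was 0.37 without quantile normalisation and 0.10 without the 4 arrays that stood apart.

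The median SD within groups was 0.27 log2 units over the 35 tested probe sets and 0.32 over all 27022, whose median levels were 13.82 and 10.85. How well probe sets of 1 gene followed each other, after group means were removed, differed by gene. The median correlation between pairs of probe sets was 0.53 for Meg3, 0.56 for Rian, 0.36 for Ndn, 0.05 for Peg3, 0.04 for Mirg, 0.02 for Dlk1, and -0.12 each for Grb10 and Gnas. Without the 4 arrays that stood apart it was 0.70 for Meg3, 0.39 for Rian, 0.45 for Ndn, 0.49 for Peg3, 0.18 for Mirg, 0.31 for Dlk1, 0.15 for Grb10 and -0.26 for Gnas.

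Between genes, 2 sets moved together from array to array after group means were removed, among the 45 pairs of brightest probe sets. Ndn correlated with Dlk1 at r = 0.74 and with Grb10 at 0.73, and Grb10 with Dlk1 at 0.69, over 24 arrays. Without the 4 arrays that stood apart these values were 0.82, 0.76 and 0.70 over 20 arrays. They lie on chromosomes 7, 12 and 11. In the other set, Peg3 correlated with Rian at 0.81 and with Meg3 at 0.77, and Meg3 with Rian at 0.67, but over 20 arrays the values were 0.43, 0.36 and 0.19. Hsp70 replicate 6, one of the 4 arrays, was low in all 3 genes of that set. All these correlations are descriptions, and the points share the arrays and their quality.

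**Figure D4:**
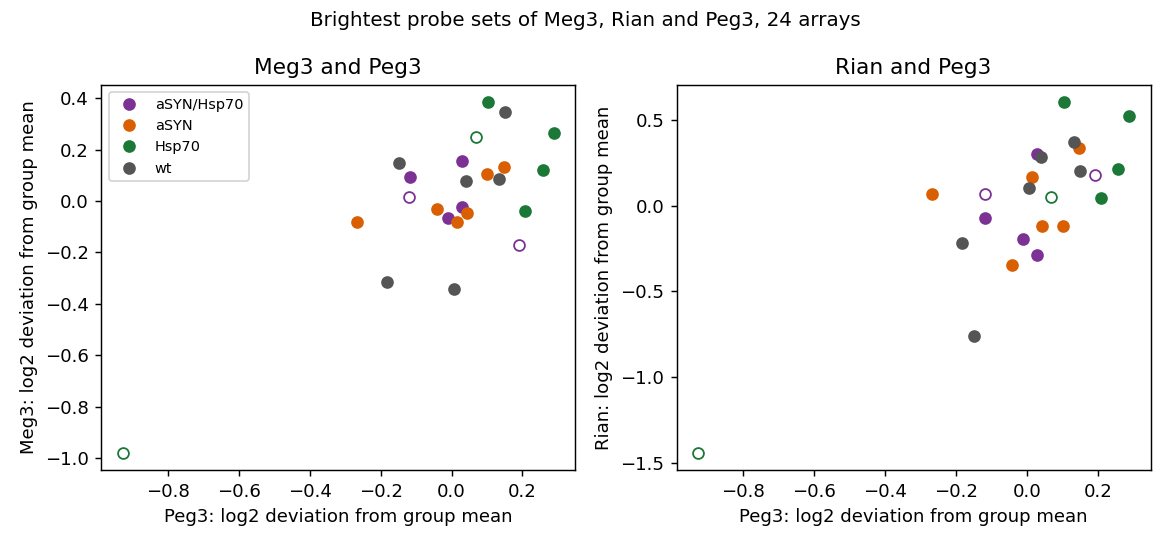
Deviation from the group mean, in log2 units, of the brightest probe set of Meg3 (left) and Rian (right) against that of Peg3 on 24 arrays, coloured by group, with open points for the 4 arrays that stood apart. Hsp70 replicate 6 lies alone at the lower left of both panels, and r with Peg3 is 0.77 for Meg3 and 0.81 for Rian with all arrays and 0.36 and 0.43 without those 4.

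The set of Ndn, Grb10 and Dlk1 moved with markers of the hypothalamus. A score, the mean log2 intensity of 7 neuropeptide genes taken as hypothalamus markers (Avp, Oxt, Hcrt, Trh, Pmch, Gal and Sst; Agrp, the 8th listed, had no named probe set, and none of the 7 was dim), ran over 11.83 to 12.33 in aSYN/Hsp70, 11.51 to 12.52 in aSYN, 10.82 to 12.22 in Hsp70 and 11.32 to 12.70 in wt samples. After group means were removed, Ndn correlated with it at r = 0.65 (permutation p = 7e-04, adjusted p = 0.021) and rho = 0.61 (permutation p = 0.00307, adjusted p = 0.0302). Grb10 gave r = 0.56 (permutation p = 0.00324, adjusted p = 0.0324) and rho = 0.59 (permutation p = 0.00402, adjusted p = 0.0302). Dlk1 gave r = 0.58 (permutation p = 0.00186, adjusted p = 0.0279) and rho = 0.64 (permutation p = 0.00064, adjusted p = 0.0171). The p-values are two-sided, from 100000 permutations within groups, and were adjusted over a family of 30 relations, 10 genes with 3 measures, which were chosen after the data had been seen.

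Leaving out the 2 arrays farthest from the median score, r was 0.61 for Ndn, 0.49 for Grb10 and 0.45 for Dlk1. Without the 4 arrays that stood apart it was 0.79, 0.83 and 0.77. For the other 7 genes r lay between -0.35 and 0.31 and none passed the adjustment. Whole-brain RNA does not show which region the marker signals came from, and whether the samples differed in their share of hypothalamic tissue was not tested. With the pituitary score, Ndn gave r = 0.61 (permutation p = 0.0188, adjusted p = 0.141) and rho = 0.69 (permutation p = 0.00114, adjusted p = 0.0171). None of the 10 genes passed with the third measure, the signal at the 3′ end minus that at the 5′ end of 4 control transcripts, a measure of RNA integrity that averaged 0.85 ± 0.09 log2 units in aSYN/Hsp70, 0.97 ± 0.08 in aSYN, 0.92 ± 0.18 in Hsp70 and 0.85 ± 0.13 in wt samples (SD, n = 6 each). Without the 4 arrays that stood apart, r with the third measure ran from -0.36 for Peg3 to 0.64 for Mirg, and these values were not tested. With all arrays the 2 genes gave 0.30 and 0.25.

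**Figure D5:**
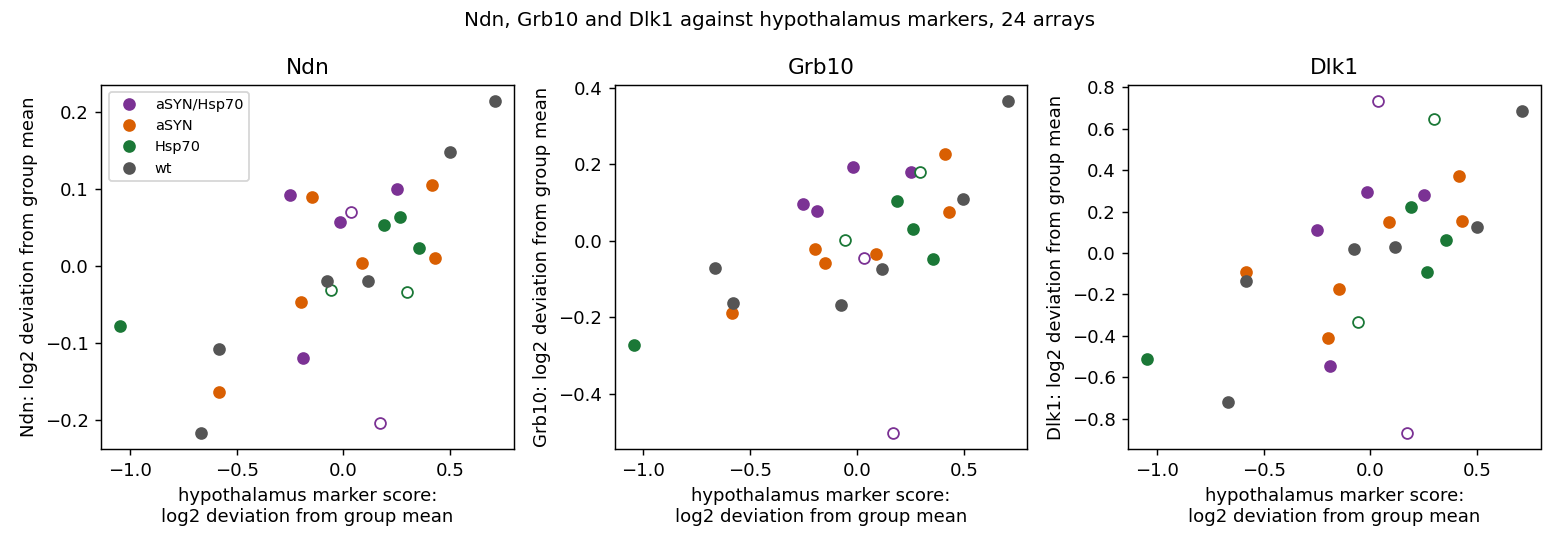
Deviation from the group mean, in log2 units, of the brightest probe sets of Ndn, Grb10 and Dlk1 against that of the hypothalamus marker score on 24 arrays, coloured by group, with open points for the 4 arrays that stood apart. All 3 probe sets were higher on arrays with a higher score, with r of 0.65, 0.56 and 0.58.

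For the brightest probe set of each gene, the 3 named genes most like it were those whose probe sets had the highest r over 24 arrays after group means were removed. They were Rarres2 (0.87), Ngb (0.84) and Magel2 (0.83) for Dlk1, and Magel2 is itself a paternally expressed imprinted gene beside Ndn. For Ndn they were Pcbd1 (0.88), Itih3 (0.85) and Zcchc12 (0.84), and for Grb10 AW551984 (0.87), Atraid (0.86) and Resp18 (0.86). These 9 values stayed between 0.75 and 0.88 without the 4 arrays that stood apart. For Kcnq1ot1 they were Stk24 (0.78), Ccdc86 (0.76) and Slc1a1 (0.76), and without those 4 arrays their r was 0.71, 0.59 and 0.83. The likest genes of Meg3 were Srrm2 (0.94), Zfp955a (0.87) and Dcaf7 (0.86), and without those 4 arrays their r was 0.87, 0.51 and 0.54. Rian was most like Hspa4 (0.92), Peg3 most like Gsk3b (0.96), Gnas most like Atp13a2 (0.88), Mirg most like Trio (0.79) and Snrpn most like Slc25a10 (0.74). Without those 4 arrays the values were 0.85, 0.77, 0.79, 0.78 and 0.64. Each of these genes was picked as the highest among all tested probe sets with 1 gene symbol, a choice that by itself raises r.

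Of 49 further mouse imprinted genes, 40 had a named probe set, 29 were bright enough to be tested on the brightest one and 11 were dim. Nnat was the only one called in any tested comparison. Nnat encodes neuronatin, a small paternally expressed membrane protein of the endoplasmic reticulum, and its only probe set read 15.68, 15.89 and 16 log2 units in aSYN/Hsp70, 15.06, 15.49 and 15.55 in aSYN, 15.47, 15.54 and 15.71 in Hsp70 and 15.20, 15.46 and 15.74 in wt brains. All 6 aSYN/Hsp70 arrays were above all 6 aSYN arrays, and Nnat rose by 0.47 in aSYN/Hsp70 versus aSYN brains (SE 0.11, limma adjusted p = 0.0438). Over all tested probe sets 0.718% were called and 2.05% had groups without overlap in that comparison, against 1 and 2 of these 29 genes. The call was made in 5 of 10 other settings and in 12 of 24 fits with 1 array left out (limma adjusted p from 0.014 to 0.143 over all of them). It was lost with the replicate block (limma adjusted p = 0.0638), with array weights (0.0586), without the filter on dim probe sets (0.108), with only the arrays compared (0.135) and without the 4 arrays that stood apart (0.143). Among the fits with 1 array left out, it was lost without any 1 of aSYN/Hsp70 replicates 1 to 4, aSYN replicates 2 to 6 or Hsp70 replicates 2, 4 and 5. Nnat differed by 0.39 in aSYN/Hsp70 versus wt brains (SE 0.11, limma adjusted p = 0.221), and its interaction was 0.39 (SE 0.15, limma adjusted p = 0.535).

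The other 28 did not pass. Of the 29, 15 were higher and 14 lower in aSYN/Hsp70 versus aSYN (median 0.023 against -0.031 over all tested probe sets), and the next after Nnat was Dcn, for the matrix proteoglycan decorin, at 0.34 (SE 0.13, limma adjusted p = 0.172). Its arrays read 12.54 to 12.83 in aSYN/Hsp70 and 12.11 to 12.50 in aSYN brains, without overlap. The summed intensity of 6 endothelial markers ran from 17885 to 28589 in aSYN/Hsp70 and 16268 to 18839 in aSYN samples, and that of 6 meningeal markers from 12406 to 17552 in aSYN/Hsp70 and 12552 to 14094 in aSYN samples. None of these markers was dim, and their part in the Nnat and Dcn differences was not tested. Ube3a, a ubiquitin ligase gene expressed from the maternal copy in neurons, differed by -0.26 in aSYN/Hsp70 versus wt brains (SE 0.11, limma adjusted p = 0.323), and its 6 aSYN/Hsp70 arrays ran from 13.22 to 14.17 against 14.10 to 14.22 in wt brains. Without the 4 arrays that stood apart, or without aSYN/Hsp70 replicate 4 alone, the difference was -0.12. In aSYN versus wt the smallest p-values belonged to Mcts2 at 0.29 and Plagl1 at -0.12 (limma adjusted p = 0.846 and 1). In Hsp70 versus wt they belonged to Atp10a at -0.92 and Calcr, a calcitonin receptor gene, at -1.34 (limma adjusted p = 0.881 for both). Calcr arrays read 6.35 to 8.25 in Hsp70 and 8.23 to 9.45 in wt brains, with overlap. In the interaction the smallest p-values belonged to Nnat and to Atp10a at 0.95 (SE 0.41, limma adjusted p = 0.563), while Calcr had a larger value, 1.38, with a larger error (SE 0.64, limma adjusted p = 0.597).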

How the data were processed

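The labels' protocols give total RNA of whole mouse brain on 24 Affymetrix arrays. The values deposited are intensities on a linear scale for each probe set, scaled by the authors so that every array had a mean of 2499 once 2% of probe sets were trimmed at each end. The program used to summarise the probes was not given in the sources used here. Intensities were transformed as log2(intensity + 16), which understates differences of dim probe sets, and quantile normalised. The 64 control probe sets and the 18015 with the lowest means (40%, called dim) were left out, and 27022 were tested in 1 limma fit of 24 arrays and 4 group means (lmFit and eBayes, limma 3.58.1, R 4.3.3), with Benjamini-Hochberg adjustment at 0.05. The fit was tested on simulated data. Of 45101 probe sets, 34958 carried 1 gene symbol, 932 several and 9211 none, and all 10 imprinted symbols matched the RefSeq gene table (GRCm38.p6) by gene ID. The number of arrays limits the precision.

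The 10 genes, the lists and the markers were chosen with earlier results of these data known. Values were given for the brightest probe set of each gene (highest mean), each other one with an unadjusted p under 0.05 in a tested comparison, the called genes and the 2 smallest p-values per tested comparison of the 49 further imprinted genes, and the 3 genes most like each by r. A Kcnq1ot1 p-value was given only for aSYN versus wt. Other settings were no quantile normalisation, no filter on dim probe sets, an offset of 1, only the arrays compared, the replicate number as a block, array weights, a sex covariate, a trended and robust variance, leaving out the 4 arrays of weight under 0.5 or each array in turn and, added after the data were seen, a larger offset. Replicate numbers were not taken to pair samples, since the labels do not say so and same-number pairs correlated little. The deviations from group means of these 36 pairs correlated at a median of 0.02 (-0.15 to 0.19). For the 180 pairs of different numbers the median was -0.01 (-0.23 to 0.23). Figures were drawn with matplotlib 3.10.9.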

Additional observations from a re-analysis of the deposited data

Results flagged for a closer look

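In 18 imprinted probe sets over 4 groups of 6 arrays, 1 array stood far from the other 5 in 8 of 72 groups (gap over range above Dixon's critical value), where chance gives about 1 in 20. Hsp70 replicate 6 accounted for 4 of them. It read 14.97 log2 units for Meg3 1452906_at (others 15.91 to 16.33), 11.13 for Rian 1452899_at (others 12.62 to 13.18), 9.48 for Rian 1428055_at (others 10.99 to 11.58) and 14.20 for Peg3 1417355_at (others 15.20 to 15.42). That array has a weight of 0.332, and on other probe sets of Meg3 and Peg3, named above, it was the highest Hsp70 array. aSYN/Hsp70 replicate 4, with a weight of 0.124, read 12.48 for Grb10 1425458_a_at (others 12.94 to 13.17). The remaining 3 lay on arrays that did not stand apart. aSYN replicate 5 read 10.16 for Mirg 1457030_at (others 10.90 to 11.25), aSYN replicate 1 read 10.24 for Rian 1428055_at (others 11 to 11.39), and wt replicate 6 read 16.58 for Gnas 1450186_s_at (others 16.69 to 16.75).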

How the results depend on the processing

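The 33 tested imprinted probe sets other than Kcnq1ot1 gave 0 calls in each of the 5 tested comparisons under every setting tried, and the 12 differences named for them kept their direction in all. Of these, 6 moved by over 1.5 times. Ndn 1455792_x_at (-0.25) was -0.16 without quantile normalisation and -0.15 with array weights, Rian 1428055_at (-0.68) was -0.42 and Gnas 1450186_s_at (0.15) 0.10 without the 4 arrays that stood apart, and Gnas was 0.37 without quantile normalisation. Grb10 1425457_a_at moved with the larger offset to -0.49 in aSYN versus wt (-0.81), 0.33 in aSYN/Hsp70 versus aSYN (0.55) and 0.48 in the interaction (0.78), and to 0.86 without quantile normalisation in aSYN/Hsp70 versus aSYN. Among the further imprinted genes, the larger offset gave -0.55 for Atp10a (-0.92) and -0.67 for Calcr (-1.34) in Hsp70 versus wt and 0.57 for the Atp10a interaction (0.95), and array weights gave 0.56 for the Atp10a interaction and -0.14 for Ube3a (-0.26), while Plagl1 (-0.12) was -0.07 without wt replicate 1. The 1458161_at difference of Kcnq1ot1 in aSYN/Hsp70 versus Hsp70 ran from -1.25 to -0.98 with each array left out and from -1.18 to -0.88 under the other settings, and that of 1457781_at from -0.94 to -0.60 and from -0.82 to -0.52. In aSYN/Hsp70 versus aSYN, 1457781_at gave -0.14 without the 4 arrays that stood apart, against -0.55. Counts over all probe sets moved more, and the cause was not tested. Those in aSYN/Hsp70 versus aSYN (194) were 43 without the filter, where more probe sets were tested, 7 with only the arrays compared, where fewer arrays entered, 324 with array weights, 89 with the sex covariate, 369 with a trended and robust variance, 102 without the 4 arrays that stood apart, and 49 (without aSYN replicate 2) to 814 (without aSYN/Hsp70 replicate 6) with 1 array left out. With the replicate block, the count was 70 in aSYN/Hsp70 versus aSYN and 2 in aSYN versus wt. In aSYN versus wt (1) there were 9 calls without quantile normalisation, 0 without the filter, with only the arrays compared or with the sex covariate, 217 with array weights, 3 with a trended and robust variance, 36 without those 4 arrays and 0 to 5 with 1 array left out. In aSYN/Hsp70 versus wt (0) there were 4 with only the arrays compared, 1 without those 4 arrays and 0 to 1 with 1 array left out. In aSYN/Hsp70 versus Hsp70 (0) there were 5 with array weights, 4 without those 4 arrays, 2 with the larger offset and 0 to 2 with 1 array left out. The interaction (0) gave 5 without quantile normalisation, 81 with array weights, 24 with a trended and robust variance, 5 without those 4 arrays, 8 with the larger offset and 0 to 30 with 1 array left out. Hsp70 versus wt gave 0 under every setting. Of 24 arrays, 8 correlated best with an array of their own replicate number, a hint from the data and not the design. How many such best matches unpaired arrays would give was not worked out. Of the 36 same-number pairs 3 correlated above 0.1, against 11 of 180 pairs of different numbers, so the numbers were not taken to pair samples. With 6 arrays a group, differences well above their standard errors could still fail to pass. Grb10 1425457_a_at in aSYN versus wt, at -0.81, is an example (SE 0.26, limma adjusted p = 0.547). A missing call therefore does not show that a gene was unchanged.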
